A study of Mus musculus with 6 samples.

Results

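Oxidative phosphorylation subunits encoded in the nucleus were examined in neurons of the embryonic mouse cortex of Rp58+/+ and Rp58-/- animals. The members are the protein-coding genes of the GENCODE vM21 annotation whose symbols begin like those of complex I (Nduf followed by a, b, c, s or v and a number), complex II (Sdha to Sdhd), complex III (Uqcr and Cyc1), cytochrome c oxidase (Cox4 to Cox8) and ATP synthase (Atp5), without the genes of the mitochondrial chromosome. The rule that picks the members uses symbols and no measured value. In all, 86 of the 34289 genes to which deposited transcripts could be summed were members. RNA came from E14.5 postmitotic neurons of Rp58+/+ cortices (control, 3 libraries) and of Rp58-/- cortices (mutant, 3 libraries), sequenced as stranded total RNA. RP58, encoded by Zbtb18, is a zinc finger transcriptional repressor of the cortical neuron lineage, and Rp58-/- denotes loss in the whole animal. The labels name no sex, litter or way of isolating the neurons, and they do not say whether the libraries came from separate embryos, so p-values measure the spread between these libraries, which may be partly technical.

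The respiratory chain sits in the inner mitochondrial membrane. Complexes I and II pass electrons from NADH and succinate to ubiquinone, complex III passes them on to cytochrome c, and complex IV gives them to oxygen, while complexes I, III and IV pump protons that ATP synthase (complex V) uses to make ATP. Most subunits are encoded in the nucleus and imported, and a small core is encoded by mitochondrial DNA. Neurons depend on this pathway for most of their ATP, and in development its use increases as progenitors that rely more on glycolysis become neurons.

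The deposited transcript lengths fell into 2 library types. In control 1, mutant 1 and mutant 2 the effective length was 249 bases shorter than the length (fixed-length type). In control 2, control 3 and mutant 3 the gap was 134 to 139 bases (estimated-length type). Total estimated counts were 34645505 to 75892649 per library. Reads of all genes of the mitochondrial chromosome took 3.58% to 5.15% of this total in the fixed-length type and 16.4% to 17.5% in the other. Its 13 protein-coding genes ran the other way. Relative to the counts of nuclear protein-coding genes, they stood at 3.98% to 5.81% in the fixed-length type and 2.34% to 2.42% in the other. Zbtb18 stood at 1587 to 1902 CPM (counts scaled to library size) in the controls, at 46.7 and 45.7 CPM in mutants 1 and 2 and at 538 CPM in mutant 3, so it was lower in every mutant library but least so in mutant 3. The Zbtb18 effect differed between the library types (edgeR adjusted p = 0.00963). Mutant 3 was kept as labelled, and it alone carries the mutant values of the estimated-length type. The edgeR comparisons of genotypes carry a term for library type unless stated otherwise. The exact permutation tests of shares compare 3 libraries with 3 and hold no such term. In bulk RNA, fewer cells that express a gene and less RNA per cell cannot be told apart.

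Of the 86 members, 79 passed the filter on low counts and were tested. The mutant had slightly less RNA for most of them: 16 fell, 1 rose and 62 were not called at an adjusted p under 0.05 (edgeR quasi-likelihood test, Benjamini-Hochberg over 16985 genes). That is 20.3% of tested members falling, against 7.01% of all genes tested, and 1.27% rising, against 7.92%. The log2 fold change of mutant over control was below 0 for 74 of 79 members (93.7%), against 50.1% of all genes. Its median was -0.30 over the members, a change of -19.0%, and -0.00081 over all genes. The middle of the members was narrow, with quartiles of -0.37 and -0.20. The difference was thus small for most genes and had the same sign in nearly all of them. Genes measured in the same 6 libraries are not independent, so the count of members with one sign is a description. The 5 members above 0 were Ndufa4l2, Cox7a2l, Ndufs7, Ndufb11 and Atp5d.

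**Figure D1:**
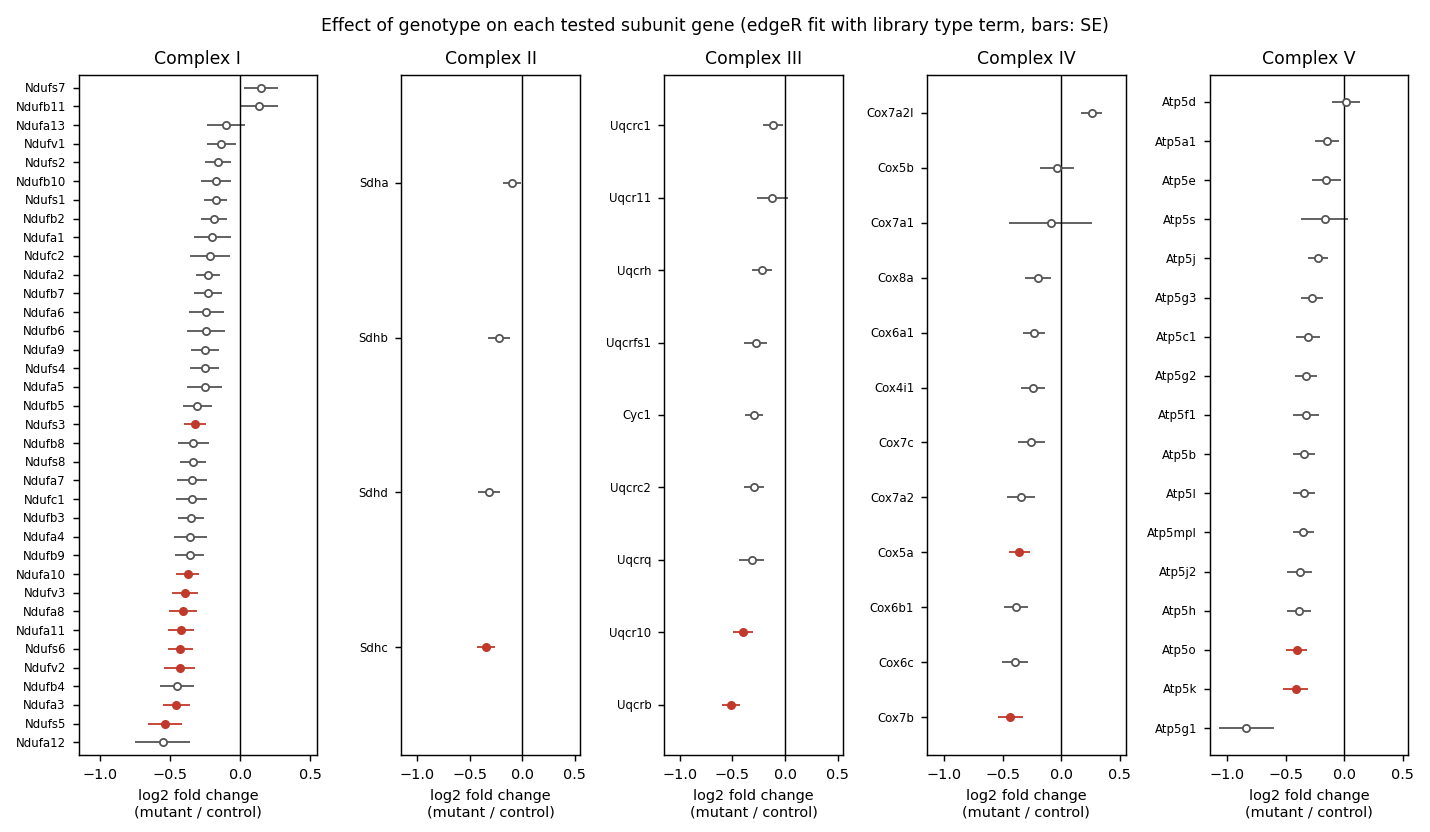
Log2 fold change of mutant over control for each tested member, with its standard error, grouped by complex; filled red points mark members that fell at an adjusted p under 0.05. Ndufa4l2, at 3.56, lies outside the axis and is not drawn. Nearly every point lies left of 0, and the complexes overlap.

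The number of calls rested on single libraries and on the library type term. Without control 1, 4 of 79 members were called (1294 of 17999 genes), and without control 2, 1 of 80 (1410 of 17632 genes). Without control 3, 2 of 80 were called (1429 of 17409 genes), and without mutant 3, 2 of 80 (1557 of 17386 genes). In these 4 fits members were called less often than all genes. Without mutant 1, 19 of 79 were called (2106 of 17939 genes), and without mutant 2, 26 of 80 (3034 of 17930 genes). Control 1 and mutant 3 are the only libraries of their genotype in their type. All 16 members that fell had a fold change below 0 in each of these 6 fits, but each kept its call in 1 to 3 of them. Without the term for library type, 1 member was called (Ndufa4l2), against 2.36% of all genes, 47 of the 79 members were below 0, and their median was -0.04.

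The largest group, complex I, oxidises NADH. Of its 37 tested members, 9 fell and 1 rose, 34 were below 0, and the median was -0.30. Among the 7 core subunits, which carry the flavin, the iron-sulfur clusters or the quinone site, 2 fell (Ndufv2 and Ndufs3) and the median was -0.17. Among the 28 accessory subunits 7 fell and the median was -0.32; whether these medians differ was not tested.

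Ndufs6, an accessory subunit near the NADH-oxidising arm that holds zinc, had 46.2, 22.2 and 21.0 CPM in controls 1 to 3 and 36.4, 31.8 and 16.2 CPM in mutants 1 to 3. It fell by 0.43 ± 0.09 on the log2 scale (SE, 3 against 3 libraries, edgeR adjusted p = 0.0231). Across all 6 libraries the genotypes overlapped, because control 1 and mutants 1 and 2 were high, but within each type every mutant library was below every control library. The same order held for each of the 16 members that fell, and for 26.6% of all genes tested. The 16 were picked by a fit to these same libraries, so their order adds no support to the calls.

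Ndufs5, an accessory subunit on the intermembrane side, had 46.8, 32.6 and 30.5 CPM in the controls and 36.2, 38.9 and 18.6 CPM in the mutants. It fell by 0.54 ± 0.12 (adjusted p = 0.0290, edgeR), and mutant 3 lay far below both controls of its type. Without mutant 3 its value was -0.31 (adjusted p = 0.166, edgeR). Ndufa3, a small membrane-arm subunit, had 35.7, 29.0 and 26.7 CPM in the controls and 28.5, 24.6 and 19.9 CPM in the mutants. It fell by 0.46 ± 0.10 (adjusted p = 0.0236, edgeR), with a smaller gap between library types than Ndufs6. Ndufa10, a membrane-arm subunit on the matrix side, had 141, 80.8 and 77.9 CPM in the controls and 112, 99.7 and 62.9 CPM in the mutants. It fell by 0.37 ± 0.08 (adjusted p = 0.0260, edgeR).

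Ndufa11, a membrane-arm subunit that contacts complex III in supercomplexes, had 77.7, 39.0 and 36.2 CPM in the controls and 63.0, 53.6 and 28.1 CPM in the mutants. It fell by 0.42 ± 0.09 (adjusted p = 0.0289, edgeR), about equally in both types, to 75.0% and 74.7% of control. Ndufv3, an accessory subunit of the flavoprotein part, had 55.2, 32.8 and 29.7 CPM in the controls and 45.3, 39.3 and 23.7 CPM in the mutants, and fell by 0.39 ± 0.09 (adjusted p = 0.0356, edgeR). Ndufa8, on the intermembrane side, had 86.4, 34.9 and 37.8 CPM in the controls and 72.7, 59.9 and 27.0 CPM in the mutants, and fell by 0.40 ± 0.10 (adjusted p = 0.0423, edgeR). Control 1 was far above controls 2 and 3, and without the type term its fold change was 0.0059. Ndufs3, a core subunit, had 90.7, 57.5 and 52.9 CPM in the controls and 77.7, 71.8 and 42.8 CPM in the mutants, and fell by 0.32 ± 0.08 (adjusted p = 0.0423, edgeR). Ndufv2, the core subunit that carries an iron-sulfur cluster beside the flavin, fell by 0.43 (adjusted p = 0.0462, edgeR).

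The lowest fold change in complex I in the edgeR fit belonged to a member that it did not call. Ndufa12 had 36.1, 33.5 and 29.0 CPM in the controls and 32.1, 34.0 and 15.9 CPM in the mutants, a log2 fold change of -0.55 ± 0.20 (adjusted p = 0.115, edgeR). Mutant 3 was at 50.8% of its control mean, while mutants 1 and 2 were at 91.4%. Its value was -0.13 without mutant 3, -0.96 without control 1 (called, adjusted p = 0.0163, edgeR), -0.23 with effective-length offsets and -0.14 with limma, so it was not the lowest in every setting. DESeq2 (adjusted p = 0.0196) and edgeR without the low-count filter (adjusted p = 0.0245) called it.

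Ndufa4l2 was the only member that edgeR called higher; DESeq2 called it and Cox7a2l. Ndufa4l2 is a close relative of Ndufa4, which is now counted as a subunit of complex IV though its symbol keeps the complex I name; it is known as a gene induced by hypoxia-inducible factor. It had 0.159, 0.045 and 0.095 CPM in the controls and 2.26, 2.26 and 1.23 CPM in the mutants, from 5, 3 and 4 counts against 117, 121 and 61. All 3 mutant libraries lay above all 3 controls, in both types. The fitted log2 fold change was 3.56 ± 0.31 (edgeR adjusted p = 0.000631), a value that depends on the prior count because control counts are few. It remained called with each library left out in turn (adjusted p of 0.00213 to 0.0132, edgeR), and its adjusted p was 0.0413 without the type term, but limma on log2(TPM + 1) did not call it (adjusted p = 0.0890). Of the counts of Ndufa4 and Ndufa4l2 together, Ndufa4l2 took 0.0519% to 0.127% in the controls and 1.81% to 2.34% in the mutants (exact two-sided permutation p = 0.1, the smallest that 3 against 3 allows). Even in the mutants, then, nearly all of the pair was Ndufa4.

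**Figure D2:**
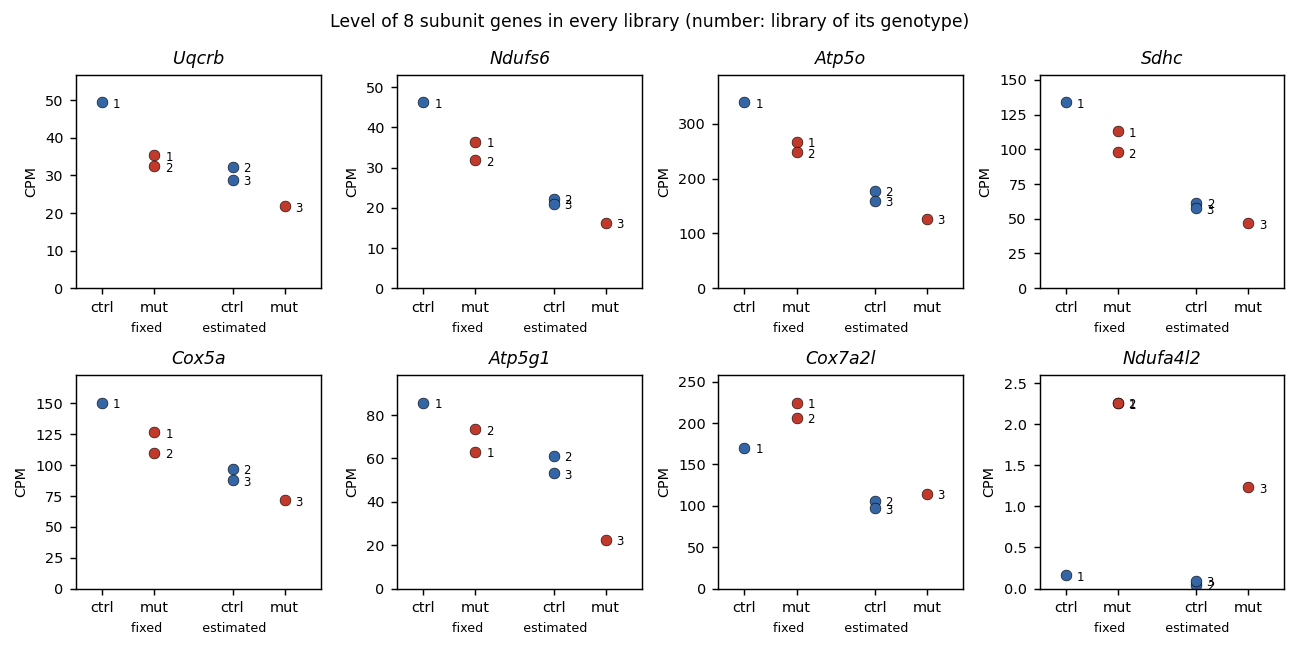
CPM of 8 members in each of the 6 libraries, 1 panel per gene with a vertical axis from 0 (blue points: control, red points: mutant, number: library of its genotype), the fixed-length type on the left and the estimated-length type on the right of each panel. The members that fell (Uqcrb, Ndufs6, Atp5o, Sdhc and Cox5a) are lower in the mutants within each type, and Ndufa4l2 is higher in all 3 mutant libraries.

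Complex II, succinate dehydrogenase, has 4 nuclear subunits, and all 4 were below 0. Sdhc, which anchors the complex in the membrane, had 134, 61.7 and 57.4 CPM in the controls and 113, 97.9 and 46.8 CPM in the mutants, and fell by 0.35 ± 0.09 (adjusted p = 0.0430, edgeR). Without the type term its value was 0.03, with effective-length offsets it was -0.16 (adjusted p = 0.433, edgeR), and limma gave -0.10 (adjusted p = 0.736). Sdha, the flavoprotein, had 207, 109 and 104 CPM in the controls and 209, 186 and 97.3 CPM in the mutants, a log2 fold change of -0.10 ± 0.08 (adjusted p = 0.494, edgeR). Its 2 mutants of the fixed-length type lay on either side of their control. The iron-sulfur subunit Sdhb had 144, 87.6 and 75.0 CPM in the controls and 138, 118 and 67.5 CPM in the mutants, with a log2 fold change of -0.22 (adjusted p = 0.214, edgeR). The other anchor, Sdhd, had 78.4, 46.1 and 41.2 CPM in the controls and 70.7, 58.2 and 34.3 CPM in the mutants, with a log2 fold change of -0.31 (adjusted p = 0.0967, edgeR).

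Complex III passes electrons from ubiquinol to cytochrome c. All 9 tested members were below 0 and 2 fell, both small accessory subunits; the median was -0.29. Uqcrb, which binds at the quinone site region, had 49.4, 32.4 and 28.8 CPM in the controls and 35.4, 32.5 and 21.8 CPM in the mutants. It fell by 0.52 ± 0.09 (adjusted p = 0.0101, edgeR), the smallest p among the members that fell. Its mutants stood at 68.6% of control in the fixed-length type and 71.3% in the estimated-length type. Uqcr10 had 35.9, 29.0 and 25.4 CPM in the controls and 27.8, 25.6 and 21.0 CPM in the mutants, and fell by 0.40 ± 0.09 (adjusted p = 0.0325, edgeR). Uqcrc1, one of the large core proteins, had the fold change nearest 0 in the complex, at -0.11 (adjusted p = 0.473, edgeR), from 210, 124 and 113 CPM in the controls and 216, 196 and 103 CPM in the mutants.

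Complex IV, cytochrome c oxidase, reduces oxygen. Of 12 tested members 2 fell, 11 were below 0, and the median was -0.25. Cox7b had 98.6, 59.5 and 56.0 CPM in the controls and 75.1, 60.9 and 45.7 CPM in the mutants, and fell by 0.44 ± 0.11 (adjusted p = 0.0396, edgeR). Cox5a had 151, 97.0 and 87.9 CPM in the controls and 127, 110 and 71.5 CPM in the mutants, and fell by 0.36 ± 0.09 (adjusted p = 0.0439, edgeR). Cox7a2l, which helps join complexes III and IV into supercomplexes, was the exception among the abundant members: it had 170, 106 and 96.9 CPM in the controls and 225, 206 and 115 CPM in the mutants. It was higher in every mutant than in every control of its type, but its log2 fold change of 0.26 ± 0.09 was not called by edgeR (adjusted p = 0.110), while DESeq2 called it (0.23, adjusted p = 0.0455). Over all genes 24.0% showed that order.

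Several complex IV subunits have an alternative isoform known from muscle, lung, testis or other tissues. The alternative isoforms were nearly silent here. Cox4i2, Cox6a2, Cox6b2, Cox7b2, Cox8b and Cox8c had at most 12 counts in any library and were not tested, as was a second gene entry named Atp5o. Cox7a1 was tested at 0.318, 0.551 and 0.474 CPM in the controls and 0.116, 0.187 and 0.709 CPM in the mutants, with a log2 fold change of -0.09 ± 0.35 (adjusted p = 0.899, edgeR). The main isoforms stood far above them. Cox4i1 had 313, 185 and 165 CPM in the controls and 281, 239 and 150.3 CPM in the mutants (log2 fold change -0.24, adjusted p = 0.169, edgeR). Cox6a1 had 165, 102 and 97.1 CPM in the controls and 158, 132 and 81.8 CPM in the mutants (log2 fold change -0.23, adjusted p = 0.165, edgeR). Cox6b1 had 176, 103 and 94.0 CPM in the controls and 139, 115 and 79.9 CPM in the mutants (log2 fold change -0.39, adjusted p = 0.0529, edgeR). The edgeR fit called none of these 3, which had unadjusted p-values of 0.0506, 0.0486 and 0.00817. Cox6b1 was called by DESeq2 (adjusted p = 0.00548), with RLE size factors (0.0422), with nuclear protein-coding genes only (0.0344), without the low-count filter (0.0202) and without mutant 2 (0.0288). Cox7a2 ranged from 67.3 to 148 CPM in the controls and from 61.4 to 120 CPM in the mutants, and Cox8a from 54.7 to 70.4 CPM and from 47.8 to 71.1 CPM.

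Complex V, ATP synthase, had 17 tested members, of which 2 fell and 16 were below 0, with a median of -0.33. Atp5o, of the stalk that holds the catalytic head still, had 339, 178 and 159 CPM in the controls and 267, 248 and 126 CPM in the mutants, and fell by 0.41 ± 0.09 (adjusted p = 0.0264, edgeR). Atp5k, a small membrane subunit found at the dimer interface, had 82.8, 43.9 and 40.2 CPM in the controls and 58.7, 52.3 and 35.4 CPM in the mutants, and fell by 0.41 ± 0.10 (adjusted p = 0.0443, edgeR). Its value was -0.58 in the fixed-length type, -0.25 in the other, and -0.23 without control 1 (adjusted p = 0.448, edgeR). The parts of the enzyme had medians of -0.15 for the 5 subunits of the F1 part and -0.33 for the 3 genes of the c ring. The median was -0.36 for the 4 genes of the peripheral stalk and -0.36 for the 4 membrane accessory subunits. No F1 gene was called. The F1 subunit Atp5d had the highest value of the complex, 0.01 (adjusted p = 0.960, edgeR). It had 100.3, 85.1 and 81.1 CPM in the controls and 124, 113 and 71.5 CPM in the mutants. The sign of its fold change turned with the scaling (-0.02 with RLE size factors).

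The c ring, which turns as protons pass, is made of 1 mature protein encoded by 3 genes that differ in the import sequence removed after entry. Atp5g1 had 85.7, 61.3 and 53.1 CPM in the controls and 63.1, 73.4 and 22.4 CPM in the mutants, a log2 fold change of -0.84 ± 0.23, the lowest of all members in this fit, and was not called (adjusted p = 0.0610, edgeR). Mutant 3 stood at 39.1% of its controls and mutants 1 and 2 at 79.6%. The value was -0.33 without mutant 3 (adjusted p = 0.256, edgeR) and -1.33 without control 1 (adjusted p = 0.00833, edgeR). It was called by DESeq2 (adjusted p = 0.000986), with RLE size factors (0.0413), without the low-count filter (0.00123) and without mutant 2 (0.0356). Atp5g2 had 214, 97.9 and 89.9 CPM in the controls and 183, 154 and 75.8 CPM in the mutants (log2 fold change -0.33, adjusted p = 0.0717, edgeR). Atp5g3 had 251, 91.2 and 86.1 CPM in the controls and 235, 205 and 69.1 CPM in the mutants (log2 fold change -0.28, adjusted p = 0.106, edgeR). Of the counts of the 3 genes together, Atp5g1 took 15.6%, 24.5% and 23.2% in the controls and 13.1%, 17.0% and 13.4% in the mutants (exact two-sided permutation p = 0.2).

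Because many members were lower together, the promoters of the members that fell were searched for binding motifs of factors known for respiratory genes. The windows were the 250 bases before the gene start in RefSeq (GRCm38.p6), read on both strands, and 66 of the 85 member symbols had 71 windows. The NRF1 motif (GCGCA, any base, then GCGC) was in 14 member windows (19.7%), against 3.74% of all windows and 5.18% of those of protein-coding genes. Of the 14 members that fell and had a window, 5 held it (Atp5k, Ndufa11, Ndufa8, Ndufs5 and Ndufs6). The ETS motif CCGGAAG, of the GABP class, was in 12 member windows (16.9%), against 6.91% of all and 8.98% of protein-coding gene windows. It was in 1 window of a member that fell (Ndufs3). The motif ACATCTG, of the class that RP58 binds, was in 2 member windows (2.82%, Atp5c1 and Ndufb4) and in none of those of members that fell. It was in 3.71% of all windows and 3.11% of protein-coding gene windows. The motifs AANATGGC (YY1) and ACGTG (hypoxia-inducible factor) were in 8.45% and 19.7% of member windows. Of all windows 3.91% and 16.6% held them, and of protein-coding gene windows 3.65% and 17.8%. A match is a stretch of letters and not a measured site. The following 4 windows show the motif in capitals in members that fell, 3 with NRF1 and 1 with ETS, each printed on its gene's strand (minus in all 4), 5′ to 3′, at chr4:123718187-123718436, chr13:73328483-73328732, chr5:108434400-108434649 and chr2:90904722-90904971 in this order.
Ndufs5: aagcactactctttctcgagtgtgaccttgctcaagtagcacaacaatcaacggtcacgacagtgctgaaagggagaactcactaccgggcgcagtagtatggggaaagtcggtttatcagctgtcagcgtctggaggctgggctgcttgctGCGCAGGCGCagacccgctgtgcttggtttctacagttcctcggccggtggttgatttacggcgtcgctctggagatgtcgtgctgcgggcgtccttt
Ndufs6: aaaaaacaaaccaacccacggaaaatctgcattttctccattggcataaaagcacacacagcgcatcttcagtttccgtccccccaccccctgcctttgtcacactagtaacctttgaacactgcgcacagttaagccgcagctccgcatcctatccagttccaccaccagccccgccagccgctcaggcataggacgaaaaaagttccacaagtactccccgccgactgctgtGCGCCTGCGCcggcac
Atp5k: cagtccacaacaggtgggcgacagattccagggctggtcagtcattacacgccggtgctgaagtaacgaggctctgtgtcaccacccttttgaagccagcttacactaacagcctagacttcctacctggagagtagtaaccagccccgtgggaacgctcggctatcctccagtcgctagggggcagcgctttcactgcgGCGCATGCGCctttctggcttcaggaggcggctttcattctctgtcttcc
Ndufs3: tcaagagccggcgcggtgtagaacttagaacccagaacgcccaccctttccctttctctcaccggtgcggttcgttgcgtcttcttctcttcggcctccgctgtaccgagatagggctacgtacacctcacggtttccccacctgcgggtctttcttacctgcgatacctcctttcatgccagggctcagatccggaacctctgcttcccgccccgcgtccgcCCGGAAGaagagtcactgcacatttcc
In Ndufs6 the NRF1 motif is on the opposite strand, so its capitals are the reverse complement of the letters above. The first capital, counted from the left, lies 98 bases before the start of Ndufs5, 16 before that of Ndufs6, 50 before that of Atp5k and 27 before that of Ndufs3.

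Within library types, most members were lower in both. Every mutant lay below every control of its own type for 60 of the 79 tested members (75.9%), against 26.6% of all genes, and every mutant lay above for 2 (Ndufa4l2 and Cox7a2l). The members' median fold change was -0.29 in the fixed-length type and -0.31 in the estimated-length type, and the median member of the mutants was at 82.1% and 80.9% of its control. The 16 members that fell were at 67.0% to 82.4% of control in the fixed-length type and at 59.0% to 84.1% in the estimated-length type. They were picked on these same libraries, so the ranges are a description.

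Few members were called within a type alone. In the fixed-length type Atp5k fell, at -0.58 (adjusted p = 0.0487, edgeR), against 3.41% of all genes, and Ndufa4l2 rose, against 6.05%. In the estimated-length type 3 fell, against 3.32%: Ndufa12 by 0.98 (adjusted p = 0.0127), Ndufs5 by 0.76 (adjusted p = 0.0187) and Atp5g1 by 1.35 (adjusted p = 0.00647), all by edgeR. There Ndufa4l2 rose too, against 4.60% of all genes. These calls share 1 fit over both types, in which the single control 1 and the single mutant 3 are taken to vary as the other libraries do. The test of the difference between types itself called 0 members (edgeR; 6 had an unadjusted p under 0.05), against 0.153% of all genes, and Atp5g1, at an unadjusted p of 0.0037, was called when the low-count filter was dropped. Across the 79 members the effects in both types had a Spearman rho of 0.25, lower than the 0.545 over all 16985 genes, as a description of genes that share libraries.

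**Figure D3:**
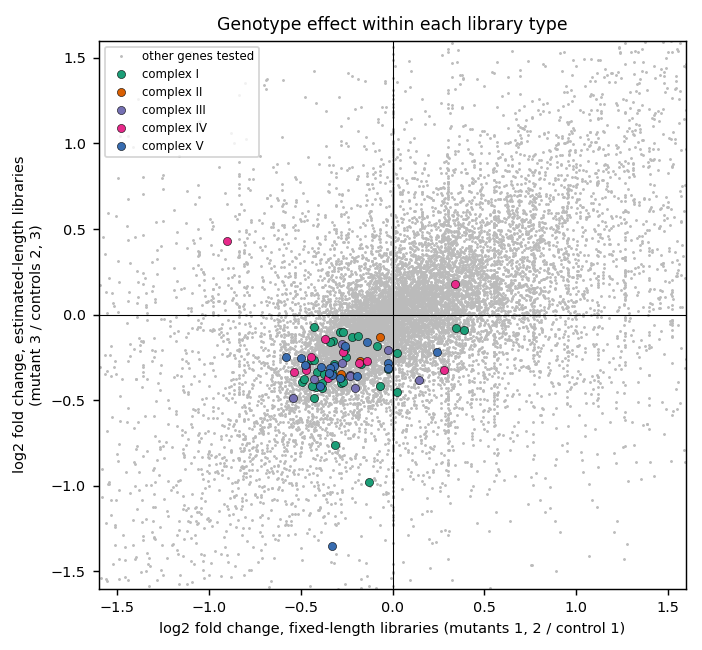
Log2 fold change of mutant over control within the fixed-length type (horizontal axis) and the estimated-length type (vertical axis), 1 coloured point per tested member (colour: complex) over all other tested genes in grey. Most points lie in the lower left, where both effects are below 0, with medians of -0.29 and -0.31; Ndufa4l2 lies beyond the axes and is not drawn.

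For 74 of the 79 members the difference between library types was larger in size than that between genotypes. The fixed-length type was higher for 74 of the 79 (93.7%), against 32.1% of all genes, and lower for 2, against 38.2%, with a median log2 difference of 0.79. The 2 lower ones were Cox5b and Cox7a1. Cox5b, a zinc-binding subunit of complex IV, had 13.4 CPM in control 1 and 16.3 in each of mutants 1 and 2, but 69.0, 65.8 and 53.8 CPM in controls 2 and 3 and mutant 3. Its fold change of -0.04 (adjusted p = 0.901, edgeR) joins values of opposite sign in the types. Since 1 control and 2 mutants are of the fixed-length type, means over genotypes that ignore the type mix both effects.

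The summed share of nuclear-encoded members shows this. Members took 1.17%, 0.851% and 0.791% of the counts of nuclear protein-coding genes in controls 1 to 3 and 1.06%, 0.975% and 0.703% in mutants 1 to 3. The genotype means were 0.937% ± 0.203 (SD, n = 3) and 0.913% ± 0.188 (SD, n = 3), a difference smaller than the spread between libraries (exact two-sided permutation p = 1, smallest possible 0.1). Within the types the mutant share was 87.2% and 85.6% of control. By complex, it was 87.7% and 85.3% of control for complex I, 91.1% and 88.1% for II, 90.2% and 84.8% for III, 87.0% and 89.4% for IV, and 85.9% and 84.4% for V, in the fixed-length and estimated-length types. Differences between complexes were not tested.

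**Figure D4:**
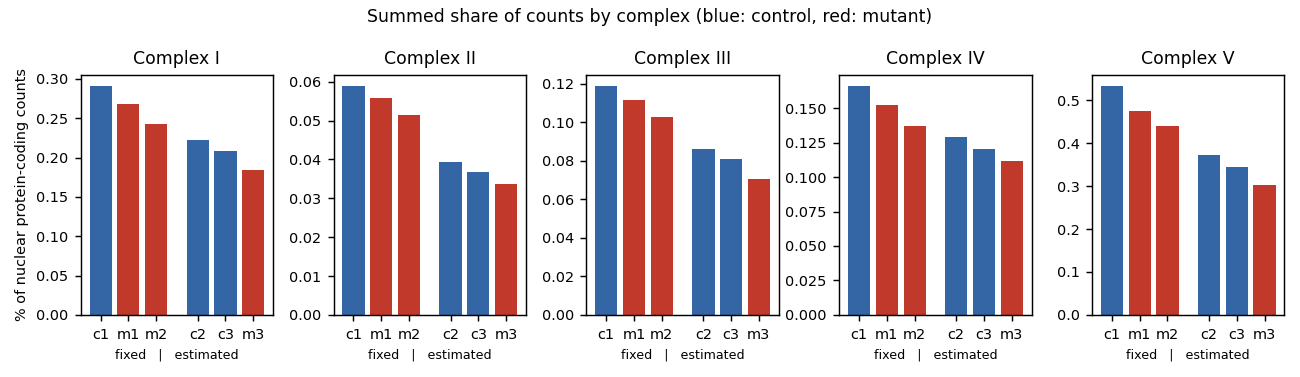
Share of nuclear protein-coding counts taken by the members, in percent, 1 panel per complex, with 1 bar from 0 for each of the 6 libraries (blue: control, red: mutant). Control 1 and mutants 1 and 2 (fixed-length type) stand to the left, and within each type the mutants are lower for all 5 complexes.

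Levels between genes were compared per length, as the deposited TPM, a value scaled by transcript length and depth, summed to genes and only within a library. Atp5b, the catalytic subunit of ATP synthase, was the highest member in every library and took 5.98% to 6.73% of the members' TPM, followed in every library by Cox4i1. The order of the 79 tested members by TPM was nearly the same in libraries of 1 type (Spearman rho 0.972 to 0.997 over pairs) and less alike across types (0.905 to 0.926).

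The same fit was run on single transcripts, as an addition made after the gene values were seen. Of 230 member transcripts tested, edgeR called 0 lower and 1 higher (that of Ndufa4l2), against 0.490% lower and 0.910% higher of the 48353 transcripts tested. Ndufv3 has a long transcript of 1575 bases and a short one of 483 bases. The long one took 17.0%, 19.9% and 19.6% of the sum in the controls and 23.5%, 24.0% and 21.6% in the mutants. Its share was thus higher in all 3 mutants. This pair was singled out after its values were seen. How many other transcripts showed such an order was not counted, so the order is a description.

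The 13 subunits encoded by mitochondrial DNA were not called by edgeR (0 fell, 0 rose, and 0 had an unadjusted p under 0.05; DESeq2 and limma also called 0). Their median log2 fold change was -0.18, and 12 were below 0. Their summed counts, relative to those of nuclear protein-coding genes, were 5.63%, 2.42% and 2.34% in controls 1 to 3. They were 5.81%, 3.98% and 2.41% in mutants 1 to 3. The mutant mean was thus 87.1% of control in the fixed-length type, where mutants 1 and 2 lay on either side of control 1. In the estimated-length type mutant 3 was at 101% of the control mean. The factors that assemble the complexes had 49 tested genes, of which 4 fell (Pet100, Bcs1l, Ecsit and Ndufaf5), with a median of -0.16. That is 8.16%, close to the 7.01% of all genes, and DESeq2 called 10 lower and limma 0. Of 11 tested genes closely tied to the chain that the symbol rule leaves out, 2 fell: Ucp2, an uncoupling carrier of the inner membrane, by 1.96 ± 0.15 (adjusted p = 0.000376, edgeR), and Cycs, which encodes cytochrome c, by 0.55 ± 0.13 (adjusted p = 0.0312, edgeR). That is 18.2% falling, against 7.01% of all genes. Of the 11, 10 were below 0 and 10 had an unadjusted p under 0.05 (edgeR), with a median of -0.32. DESeq2 called 7 of the 11 lower and limma 0.

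Regulators of mitochondrial biogenesis were centred near 0. Of 14 tested none was called by edgeR (1 with an unadjusted p under 0.05; 1 called lower by DESeq2 and 0 by limma), 5 were below 0 and the median was 0.03; Ppargc1a, the best-known coactivator of the program, was at -0.48 (adjusted p = 0.255, edgeR) and Nrf1 at 0.02 (adjusted p = 0.880, edgeR). Of 24 genes of the TCA cycle and pyruvate entry, 23 were below 0 and 1 fell, the pyruvate carrier gene Mpc1, by 0.44 ± 0.10 (adjusted p = 0.0294, edgeR). That is 4.17%, and DESeq2 called 8 lower and limma 0. Of 75 mitochondrial ribosomal protein genes, 69 were below 0 and 7 fell, led by Mrpl16, Mrps24 and Mrpl47, with a median of -0.23. That is 9.33%, and DESeq2 called 19 lower and limma 2. Of 80 cytosolic ribosomal protein genes, 71 were below 0, 1 fell (Rpl7a) and the median was -0.18. That is 1.25%, and DESeq2 called 17 lower and limma 0. Of 12 outer membrane and import genes and 10 of fission, fusion and transport, edgeR called none (5 in each list with an unadjusted p under 0.05; DESeq2 called 4 and 2 lower, limma 0), with medians of -0.21 and -0.18.

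Glycolysis had larger changes in single genes. Of 21 tested genes 7 fell and 2 rose, 17 were below 0, and the median was -0.30, like that of the members. That is 33.3% falling, against 20.3% of the members and 7.01% of all genes, of which 7.92% rose. DESeq2 called 12 lower and 2 higher, and limma 3 lower and 0 higher. Those with the smallest p were Slc16a1, a lactate and pyruvate transporter, which fell by 1.56 ± 0.08 (adjusted p = 7.1e-05), Hk2, a hexokinase, by 1.29 ± 0.12 (adjusted p = 0.000854) and Eno2, the neuronal enolase, by 1.09 ± 0.10 (adjusted p = 0.000864), all by edgeR. Aldoc and Hk1 rose. Ldha fell by 1.14 ± 0.11 (adjusted p = 0.000889, edgeR) and was singled out after its values were seen. A part of hypoxia-inducible factor in these changes was not tested.

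**Figure D5:**
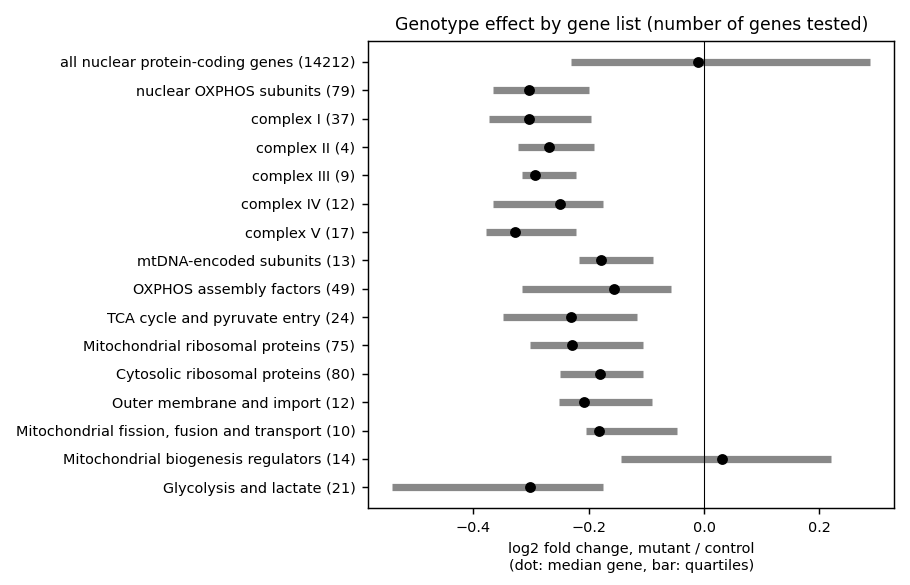
Median log2 fold change of mutant over control (dot) and the quartiles over genes (bar) for nuclear protein-coding genes, the members, each complex and related lists, with the number of genes tested in parentheses. The complexes lie between -0.33 and -0.25, the biogenesis regulators near 0.

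Markers of cell state moved with genotype as well. Of 8 neuron markers, 3 fell (Stmn2, Gap43 and Dcx) and 2 rose (Rbfox3 and Snap25), and their summed level was 4666 to 7238 CPM in the controls and 3767 to 6046 CPM in the mutants. Of 10 radial glia and progenitor markers, 6 rose (Hes1, Pax6, Sox2, Eomes, Mki67 and Top2a) and 2 fell (Slc1a3 and Vim), and their sum was 110 to 251 CPM in the controls and 182 to 380 CPM in the mutants. These ranges join both library types. Within each type, every mutant lay below every control for the summed neuron markers and above every control for the summed progenitor markers. The part of these markers in the members' lower levels was not tested. Erythroid markers summed to 6.64 to 11.4 CPM in the controls and up to 20.8 CPM in the mutants, with Hbb-bh1 at 0 in all 6 libraries. Interneuron, microglia, endothelial with mural, and muscle markers summed to at most 2.37, 2.33, 4.05 and 4.37 CPM in any library, with 2 of them called, Dlx5 and Kdr, both higher.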

How the data were processed

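Each deposited table lists transcripts with their length, effective length, estimated counts and TPM, per the file headers; the submitters' processing notes name kallisto, FastQC and mm9, and say no more of versions, strand setting or filters in the sources used here. The authors' estimated counts (expected counts) are not normalized, and the authors' TPM are scaled by transcript length and depth. Of 97251 transcripts, 84637 matched GENCODE vM21; the others held 6.85% to 8.58% of counts and were left out. Counts were summed to genes and rounded. Genes were kept by filterByExpr (defaults) and scaled by TMM in edgeR 4.0.16 (R 4.3.3). The quasi-likelihood test (glmQLFit, glmQLFTest) used genotype and library type, with 4 means of genotype by type for effects within types, and Benjamini-Hochberg adjustment over 16985 genes. CPM use the TMM library sizes, and fold changes a prior count of 2. The common biological coefficient of variation was 0.186 with the type term and 0.701 without it. A chi-square test of counts found every pair of libraries distinct.

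Values in all libraries are given for the called members with the smallest p, the extremes of each complex, the isoform sets and the Sdh genes; other lists give up to 3 called genes. The members, gene lists and tests were chosen with earlier results of these data known. The test was checked on simulated data before use. Alternatives were no type term, RLE size factors, nuclear protein-coding genes only, no low-count filter, DESeq2 1.42.0, effective-length offsets, limma 3.58.1 on log2(TPM + 1), and each library left out. Lengths also served to tell the library types apart.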

Additional observations from a re-analysis of the deposited data

Results flagged for a closer look

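For 4 members every mutant library lay on one side of its control in the fixed-length type and on the other in the estimated-length type. The share of all genes with such an order was not counted, so the number of members is a description. Ndufs7, a core subunit of complex I, had log2 fold changes of 0.39 in the fixed-length and -0.0914 in the estimated-length type. Cox5b had 0.28 and -0.32, Cox7a1 had -0.90 and 0.43, and Atp5d had 0.24 and -0.22. The edgeR test of the difference between types gave adjusted p-values of 0.579, 0.443, 0.768 and 0.652, so none of the 4 differences was called. Cox7a1 rests on few reads.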

How the results depend on the processing

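The members' median stayed between -0.35 and -0.24, with 71 to 77 of them below 0, in every alternative with the type term; the number called did not. Against 17 in the main analysis, the members called numbered 1 without the type term, 29 with RLE size factors, 32 with nuclear protein-coding genes only, 31 without the low-count filter, 44 with DESeq2, 14 with effective-length offsets, 0 with limma on log2(TPM + 1) (17 with an unadjusted p under 0.05) and 1 to 26 with a library left out. All genes called, 2537 of 16985, became 400 without the type term, 2772 with RLE size factors and 2311 with effective-length offsets. DESeq2 called 4029 of the 16985 and limma 780. The calls were 2860 of 14286 with nuclear protein-coding genes only, 3178 of 28791 without the low-count filter and 1294 to 3034 with a library left out. Members tested numbered 79, but 86 without the filter and 79 or 80 with a library left out. The share of calls that were higher was 53.1%, against 43.6% with DESeq2, 67.5% without the type term and 63.8% without mutant 3. In settings added after the values were seen, members called in the fixed-length type were 4 without the filter and 1 with offsets, against 2, and those that differed between types were 1 without the filter, against 0. The mutant minus control difference in summed share, -0.0232 percentage points, became 0.0428 over all counts, 0.587 in TPM and -0.0980 to 0.0927 with a library left out. Signs turned without the type term for Ndufa8 (0.00586), Sdha (0.229), Sdhb (0.0750), Sdhc (0.0270), Cox4i1 (0.0163), Cox6a1 (0.0306), Atp5g2 (0.0417), Atp5g3 (0.247) and Uqcrc1 (0.205), for Sdha with offsets (0.0207) and limma (0.0843), and for Atp5d with RLE (-0.0164), DESeq2 (-0.0164) and offsets (-0.0130). With a library left out, Cox7a1 ranged from -0.898 to 0.454 (above 0 without control 1 and mutant 1) and Atp5d from -0.195 to 0.244 (below 0 without control 1 and mutant 1). The cause was not tested. No paired analysis was possible because the labels give the libraries no shared replicate numbers; the numbers 1 to 3 used here follow the order in which the libraries are listed and only name them. With 3 libraries a genotype, depth limits only the members with few counts.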
